A study of Danio rerio with 24 samples.

Results

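The C/EBP genes encode a small family of transcription factors, and 7 of the 14781 zebrafish genes in the deposited count tables were taken for it by symbol: cebpa, cebpb, cebpd, cebpg, cebp1, cebpz and ddit3. Their levels were read in 14 RNA-seq libraries of adult brain and whole kidney marrow. Per the labels, the fish were males of the EK strain, 4 to 12 months of age. In injured fish, cardiomyocytes were ablated with tamoxifen (0.5 to 0.7 µM, 17 h), and tissue was collected 7 days later. The ablation experiment, in fish labelled wild type, has 2 libraries each of uninjured brain, ablated brain, uninjured kidney marrow and ablated kidney marrow. The cebpd experiment has 3 libraries of ablated brain from cebpd+/+ fish and 3 from cebpd-/- fish, all with ablated hearts, so it has no uninjured arm. The labels name neither the transgene that makes the ablation possible nor the change that inactivates cebpd, and they do not state whether uninjured fish also received tamoxifen or whether libraries came from separate fish. P-values therefore measure the spread between these libraries only.

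C/EBP proteins bind DNA as dimers through a basic leucine zipper. In mammals, cebpa directs the formation of granulocytes and the differentiation of liver and fat cells, and cebpb drives acute-phase gene expression and the emergency production of granulocytes. cebpd is an acute-phase member that interleukin-6 signalling through STAT3 and glucocorticoids switch on quickly. cebpg lacks the activation domain of the others and works as a dimer partner, and ddit3, also called CHOP, is the member induced by ATF4 in the integrated stress response. cebp1 is a zebrafish member known from myeloid cells. cebpz carries the family name but no leucine zipper, and its yeast relative Noc1 takes part in the assembly of the large ribosomal subunit.

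Levels are given as CPM, the reads of a gene scaled to a common library size with TMM over the 14 libraries, and they depend on transcript length, so they are compared between libraries and not between genes. The libraries of the ablation experiment were the deeper ones, at 14364306 to 20469655 reads in genes, against 4377028 to 6280007 for those of the cebpd experiment, and the experiments were not tested against each other. Spearman correlations of counts between libraries of 1 group ran from 0.990 to 0.997. The tissue labels were checked with marker genes. The 8 neuronal markers summed to 9880 to 11364 CPM in the 10 brain libraries and to 75.5 to 104 CPM in the 4 kidney marrow libraries. The 7 neutrophil markers summed to 4779 to 5618 CPM in kidney marrow and to 8.26 to 37.6 CPM in brain. The libraries labelled kidney marrow also held 9748 to 12874 CPM of 7 nephron markers, so they hold kidney tissue beside marrow cells. In such bulk samples, fewer cells of a type and less RNA per cell cannot be told apart.

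The tissues were compared first without injury. The members known from myeloid cells had much higher levels in kidney marrow than in brain. cebpb stood at 410 and 328 CPM in uninjured kidney marrow and at 12.8 and 11.5 CPM in uninjured brain. cebp1 stood at 158 and 118 CPM in kidney marrow and at 4.91 and 4.61 CPM in brain. cebpa was at 480 and 279 CPM in kidney marrow and at 38.1 and 43.3 CPM in brain. For all 3, every kidney marrow library lay above every brain library, and the fitted log2 difference of brain against kidney marrow was -4.93 for cebpb (SE 0.16, 30.4-fold higher in marrow, 95% interval 23.0 to 40.2, edgeR adjusted p = 2.79e-06), -4.86 for cebp1 (SE 0.20, 29.1-fold, adjusted p = 5.43e-06) and -3.23 for cebpa (SE 0.28, 9.35-fold, adjusted p = 0.000127).

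cebpd was also higher in kidney marrow, at 267 and 127 CPM against 28.6 and 24.7 CPM in brain (log2 difference of brain against marrow -2.89, SE 0.37, 7.41-fold, edgeR adjusted p = 0.000684). The marrow libraries of cebpd and cebpa differed much more from each other than the brain libraries did, with replicate 1 the higher of the pair. Without uninjured marrow replicate 1 the cebpd difference was -2.25. The remaining members differed less between tissues. cebpz stood at 62.0 and 69.4 CPM in kidney marrow and at 36.7 and 40.7 CPM in brain (log2 difference -0.77, SE 0.11, edgeR adjusted p = 0.00129). cebpg stood at 113 and 115 CPM in kidney marrow and at 84.2 and 80.7 CPM in brain (log2 difference -0.47, SE 0.09, edgeR adjusted p = 0.00318). The call for cebpg ended when either brain library was left out, with log2 differences of -0.49 and -0.42 and adjusted p = 0.0543 and 0.0767.

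ddit3 was the member with no call between uninjured tissues. It was at 59.7 and 59.2 CPM in brain and at 38.4 and 61.1 CPM in kidney marrow. The brain libraries lie between the marrow libraries, which are far apart, and the log2 difference was 0.25 (SE 0.22, 95% interval -0.28 to 0.79, edgeR adjusted p = 0.321). Without marrow replicate 2 it was 0.62 with an adjusted p of 6.52e-09, and without replicate 1 it was -0.04. In all, 6 of 7 members were called lower in brain and none higher. Brain and kidney marrow differ widely: edgeR called 39.2% of 12936 tested genes lower in brain and 38.9% higher, and brain libraries lay below kidney marrow ones without overlap for 45%.

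**Figure D1:**
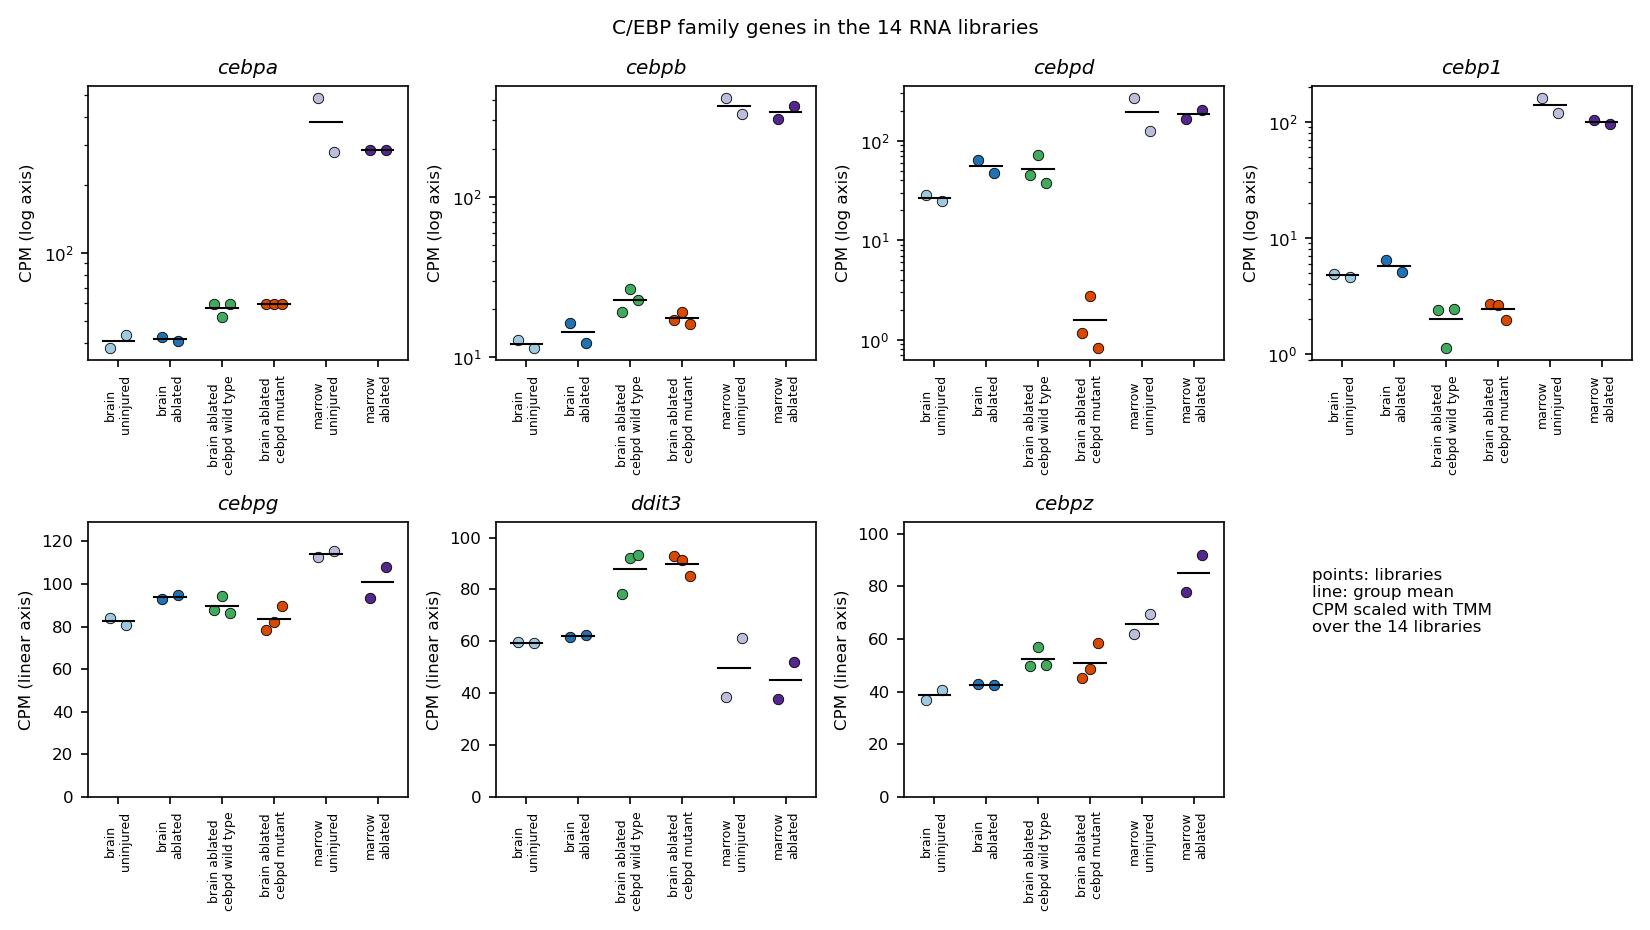
Level of each C/EBP gene in CPM in the 14 RNA libraries, 1 panel per gene, with a log axis for cebpa, cebpb, cebpd and cebp1 and a linear axis from 0 for cebpg, ddit3 and cebpz; points are libraries and lines are group means. The kidney marrow libraries lie far above the brain libraries for cebpa, cebpb and cebp1. For cebpd they lie above with a smaller gap, the lowest marrow library at 127 CPM and the highest brain library at 71.5 CPM. In the mutants cebpd falls to between 0.826 and 2.78 CPM.

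Over the 6 groups, the order of mean levels was the same at the top for cebpa, cebpb, cebpd, cebpg and cebp1, with uninjured kidney marrow first and ablated kidney marrow second. These neighbours overlapped for cebpa, cebpb and cebpd and did not for cebpg and cebp1. The brain groups followed, without overlap with kidney marrow except for cebpg. There ablated marrow overlapped with ablated brain of the ablation experiment and with the wild type of the cebpd experiment. For cebpd the brain groups were ordered ablated brain of the ablation experiment (55.7 ± 11.4 CPM, SD, n = 2), wild type of the cebpd experiment (51.5 ± 17.6, n = 3), uninjured brain (26.7 ± 2.75, n = 2) and cebpd mutant (1.59 ± 1.04, n = 3). The ablated brain and the wild type overlapped, and the remaining neighbours in this order did not. The 2 experiments give the levels of other genes differently: ddit3 stood at 78.0 to 93.4 CPM in the 6 libraries of the cebpd experiment and at 59.2 to 62.4 CPM in the 4 brain libraries of the ablation experiment, and cebp1 at 1.13 to 2.69 CPM against 4.61 to 6.42 CPM. Depth and experiment cannot be told apart here.

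cebp1 and the sum of the neutrophil markers were both higher in kidney marrow than in brain, and both lower in the brain libraries of the cebpd experiment than in those of the ablation experiment. The summed level of the 7 neutrophil markers was 28.2 and 32.3 CPM in uninjured brain, 37.6 and 30.2 CPM in ablated brain, and 8.26 to 15.8 CPM in the 6 libraries of the cebpd experiment. In CPM the step was mostly that of mpx (9.31 to 13.0 against 2.69 to 4.34) and lyz (7.42 to 11.4 against 0 to 1.24). The lower levels of cpa5, lect2l and npsn were lower there too, while mmp9 and mmp13a overlapped between the experiments. None of the 7 was at 0 in any library of the ablation experiment. In the cebpd experiment npsn was at 0 in all 6 libraries, lect2l in all 3 mutants, mmp13a in wild type replicate 3 and lyz in mutant replicate 3. The cebp1 values there rest on 6 to 17 reads per library. Within the groups the order differed: wild type replicate 2 had the lowest cebp1 (1.13 CPM) and the highest neutrophil sum of the wild type libraries (14.3 CPM). Marker sums of some other cells stepped down between the experiments too. Thrombocytes stood at 42.5 to 46.0 CPM in brain of the ablation experiment against 9.15 to 16.7 CPM. Lymphocytes stood at 14.5 to 16.2 against 5.37 to 8.96 CPM and nephron at 116 to 125 against 63.7 to 80.5 CPM. The thrombocyte step was mostly gp1bb, with means of 41.6 CPM in uninjured brain, 9.59 in cebpd+/+ and 9.51 in cebpd-/- libraries. The lymphocyte step was mostly rag2 (11.6, 1.90 and 2.27 CPM). In the same order, itgb3b stood at 1.67, 1.73 and 2.28 CPM, zap70 at 1.89, 1.78 and 1.93, and lck at 1.12, 1.87 and 1.21. Other sums stepped up, with erythroid cells at 162 to 229 against 339 to 543 CPM and hepatocytes at 541 to 601 against 1194 to 1713 CPM. The erythroid step was that of hbaa1 (77.2 to 138 against 278 to 438 CPM), while alas2, slc4a1a, gata1a and epor overlapped between the experiments. The hepatocyte sum was mostly cp, with a mean of 583 CPM in uninjured brain against 1431 in cebpd+/+ and 1422 in cebpd-/- libraries. Neurons stood at 9880 to 10343 against 10843 to 11364 CPM. The part of neutrophil content in the cebp1 level was not tested.

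**Figure D2:**
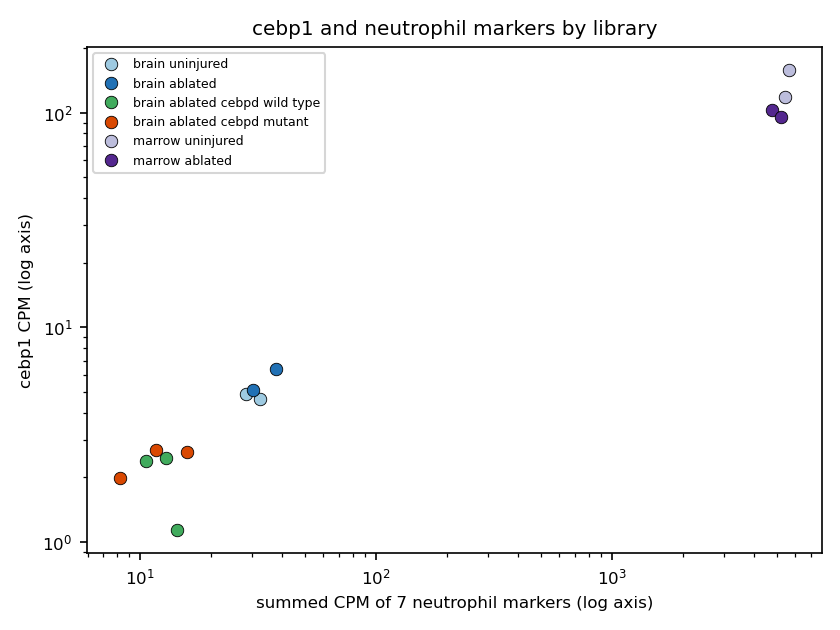
Level of cebp1 against the summed level of 7 neutrophil markers, both in CPM on log axes, with 1 point per RNA library and colours for the 6 groups. The kidney marrow libraries lie at the upper right, the brain libraries of the ablation experiment between 4.61 and 6.42 CPM of cebp1, and those of the cebpd experiment below 3 CPM.

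The brain comparison asks how the brain responds to an injury of the heart. cebpd was the 1 member of 7 that edgeR called higher in the brain after cardiomyocyte ablation. It stood at 28.6 and 24.7 CPM in uninjured brain and at 63.8 and 47.6 CPM in ablated brain. The ablated libraries lie above the uninjured ones with a wide gap, and they differ from each other more than the uninjured ones do. The fold was 2.07 (95% interval 1.70 to 2.52; log2 fold change 1.05, SE 0.13, n = 2 per group, edgeR adjusted p = 0.00596). edgeR called 0.283% of 12371 tested genes higher and 0.17% lower. The call held when any 1 library was left out, with log2 fold changes from 0.83 to 1.26. In a fit that also held the kidney marrow libraries the log2 fold change was 1.06 and the adjusted p was 1.

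No other member was called, although all 7 fitted log2 fold changes were above 0 and their median was 0.19, against -0.00 over all tested genes. The dimer partner cebpg was at 84.2 and 80.7 CPM in uninjured brain and at 93.0 and 94.99 CPM in ablated brain. Its libraries did not overlap and its replicates lay close together, and the log2 fold change was 0.19 (SE 0.06, 95% interval 0.05 to 0.32, unadjusted p = 0.0114, edgeR adjusted p = 0.452). It was, with cebpd, 1 of the 2 members with an unadjusted p under 0.05, which 6.85% of all genes had.

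The remaining members had intervals that include 0. cebpb stood at 12.8 and 11.5 CPM in uninjured and at 16.4 and 12.3 CPM in ablated brain, and the groups overlapped (log2 fold change 0.23, 95% interval -0.10 to 0.56, edgeR adjusted p = 0.852). cebp1 stood at 4.91 and 4.61 CPM against 6.42 and 5.08 CPM (log2 fold change 0.26, interval -0.16 to 0.68, edgeR adjusted p = 0.875). Ablated replicate 1, the highest of the 4 libraries for cebp1, was also the highest in neutrophil markers, whereas uninjured replicate 2, the lowest for cebp1, was the second highest. cebpz was at 36.7 and 40.7 CPM in uninjured and at 42.7 and 42.6 CPM in ablated brain (log2 fold change 0.14, interval -0.04 to 0.31, edgeR adjusted p = 0.822). ddit3 stood at 59.7 and 59.2 CPM against 61.6 and 62.4 CPM (0.06, interval -0.08 to 0.20, edgeR adjusted p = 0.924). cebpa stood at 38.1 and 43.3 CPM against 42.5 and 41.1 CPM (0.04, interval -0.15 to 0.22, edgeR adjusted p = 0.975). These intervals leave room for changes of the size seen for cebpg, but none reaches the fold of cebpd.

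The ablated libraries lay above the uninjured ones without overlap for 5 members, namely cebpd, cebpg, cebp1, cebpz and ddit3, where 18.3% of all tested genes did so. Several marker sums also lay apart in the 2 brain groups. Higher in every ablated library were microglia and macrophages at 455 to 477 CPM against 423 to 439, endothelium at 188 to 194 against 161 to 170, and radial glia at 6293 to 6545 against 5854 to 6279. Lower were neurons at 9880 to 10146 against 10304 to 10343, oligodendrocytes at 1937 to 1965 against 2213 to 2214, and erythroid cells at 162 to 197 against 203 to 229. Nephron markers at 116 to 117 against 120 to 125 and thrombocytes at 42.46 to 42.52 against 43.3 to 46.0 also lay lower. The neutrophil, lymphocyte and hepatocyte sums overlapped. Within most lists the genes went both ways. The microglial sum was mostly apoeb (log2 fold change 0.14), while mpeg1.1 of that list had -0.23. In radial glia edgeR called cx43 higher (0.26, adjusted p = 0.0324), while s100b and fabp7a had -0.22 and -0.23 without a call. In endothelium it called cldn5b (1.29) and fli1a (0.56) higher, and in erythroid cells hbaa1 lower (-0.59). Of the oligodendrocyte genes, plp1b and mpz had -0.19 and -0.22 and olig2 0.25. The part of these cell types in the rise of cebpd was not tested.

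The share of cebpd among the reads of the family grew with its level. It was 10.8% and 9.35% in uninjured brain and 19.5% and 15.6% in ablated brain. The 7 genes together summed to 265 and 265 CPM in uninjured brain and to 326 and 306 CPM in ablated brain. Without cebpd the sums were 237 and 240 CPM against 263 and 258 CPM. Sums of CPM weight long transcripts more than short ones, and they are given as a description.

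**Figure D3:**
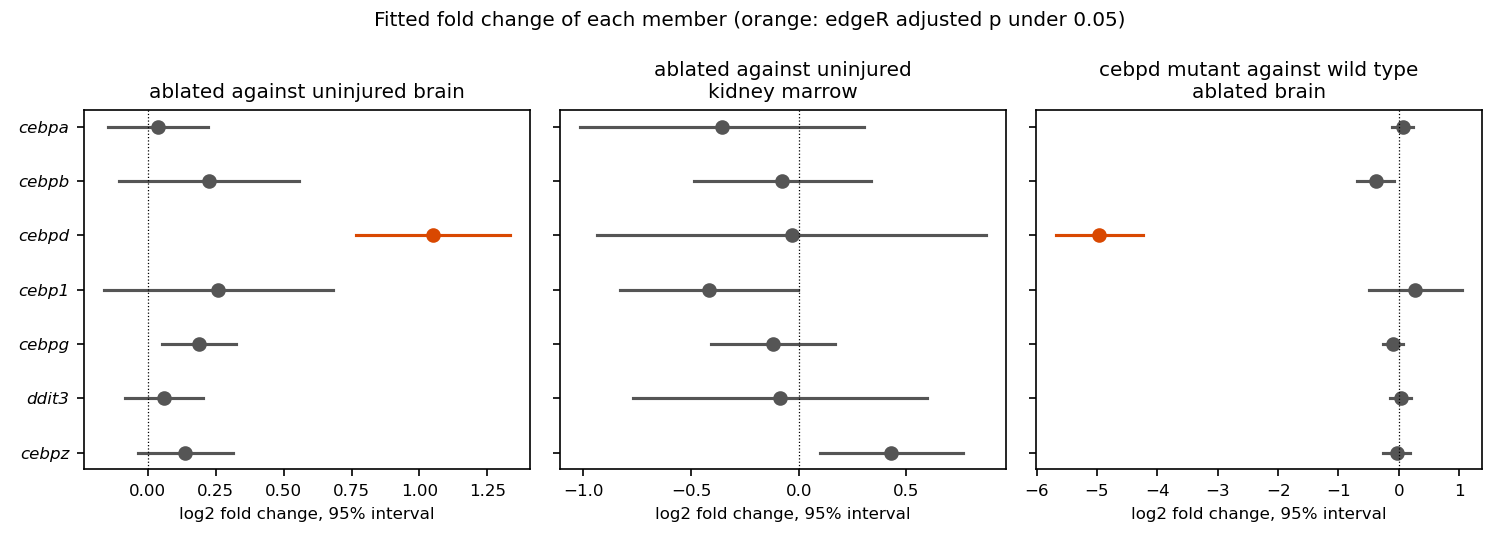
Fitted log2 fold change of each C/EBP gene with its 95% interval for 3 comparisons, with a separate scale in each panel; orange marks an edgeR adjusted p under 0.05. cebpd is called in the brain after ablation (1.05) and in the mutant (-4.96), and no member is called in kidney marrow.

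In kidney marrow the same question gave no call for any member. edgeR called 0% of 12160 tested genes, while 2384 genes had an unadjusted p under 0.05 (19.6%), 2 of the 7 members among them. DESeq2 called 607 of 10274 genes (5.91%) and no member. cebpd was at 267 and 127 CPM in uninjured and at 164 and 206 CPM in ablated kidney marrow. The ablated libraries lie between the uninjured ones, and the log2 fold change was -0.03 with a wide interval (SE 0.36, 95% interval -0.94 to 0.87, edgeR adjusted p = 0.966). The sign turned with the library left out, from -0.47 to 0.60, and the value without uninjured replicate 1 was 0.60. The upper end of the full interval lies below the 1.05 fitted in brain but within that value's own interval in brain (0.77 to 1.33).

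cebpz, the ribosome assembly member, had the lowest p of the family in kidney marrow. It stood at 62.0 and 69.4 CPM in uninjured and at 78.0 and 92.0 CPM in ablated kidney marrow. Both ablated libraries lie above both uninjured ones, with a log2 fold change of 0.43 (SE 0.13, 95% interval 0.10 to 0.76, unadjusted p = 0.0207, edgeR adjusted p = 0.180). In the fit over all 4 groups of the ablation experiment, the log2 fold change was again 0.43 and the edgeR adjusted p was 0.0434. That fit called 1352 of 13077 tested genes, cebpz the only member among them. The 21 other ribosome assembly genes measured all had a fitted difference above 0 there, with a median log2 fold change of 0.53 against -0.01 over all tested genes. None of them passed the edgeR test, 19 of the 21 had an unadjusted p under 0.05, and DESeq2 called 7. The lowest p in that list were those of npm1a, which encodes nucleophosmin (0.79, SE 0.10, edgeR adjusted p = 0.0740), and bop1, a factor of large subunit maturation (0.75, SE 0.11, adjusted p = 0.0853). noc3l and noc2l, named for other yeast Noc proteins, had log2 fold changes of 0.52 and 0.44.

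cebp1 differed in the other direction, also without a call. It stood at 158 and 118 CPM in uninjured and at 103 and 95.8 CPM in ablated kidney marrow, without overlap (log2 fold change -0.42, SE 0.16, 95% interval -0.83 to -0.00, unadjusted p = 0.0492, edgeR adjusted p = 0.253). The neutrophil markers summed to 5618 and 5408 CPM in the uninjured and to 4779 and 5212 CPM in the ablated libraries, also without overlap. By gene, 3 of the 7 were above 0 and 4 below, with a median log2 fold change of -0.05 and none at an unadjusted p under 0.05, and their part in the cebp1 difference was not tested. cebpa was at 480 and 279 CPM against 284 and 286 CPM (log2 fold change -0.36, interval -1.02 to 0.30, edgeR adjusted p = 0.500), and the 1 high library is uninjured replicate 1. cebpb stood at 410 and 328 CPM against 304 and 368 CPM (-0.08, interval -0.49 to 0.33, edgeR adjusted p = 0.821). cebpg stood at 113 and 115 CPM against 93.4 and 108 CPM (-0.12, interval -0.41 to 0.17, edgeR adjusted p = 0.607). ddit3 was at 38.4 and 61.1 CPM against 37.9 and 52.0 CPM (-0.09, interval -0.77 to 0.60, edgeR adjusted p = 0.882). The libraries of 3 of 7 members did not overlap, cebpz higher and cebpg and cebp1 lower, where 22.9% of all tested genes lay higher without overlap and 30.6% lower. Other marker sums differed as well: endothelium stood at 598 to 628 CPM in uninjured and 971 to 1377 CPM in ablated kidney marrow, nephron at 12352 to 12874 against 9748 to 10736, hepatocytes at 269 to 320 against 445 to 690, thrombocytes at 174 to 191 against 282.2, and lymphocytes at 46.6 to 51.3 against 31.2 to 31.9. Their part in the values of the members was not tested.

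Whether the ablation response differed between tissues was tested directly as an interaction over the 8 libraries. No member passed the test, against 0.26% of 13077 genes in either direction. The difference was 1.09 on the log2 scale for cebpd (brain response minus marrow response, SE 0.45, 95% interval 0.05 to 2.14, unadjusted p = 0.0426, edgeR adjusted p = 0.293). It was 0.50 without uninjured marrow replicate 1 and 1.58 without replicate 2, with adjusted p from 0.0561 to 0.627 over the 8 libraries left out in turn. The difference was 0.68 for cebp1 (SE 0.25, unadjusted p = 0.0282, adjusted p = 0.254) and 0.31 for cebpg (SE 0.13, unadjusted p = 0.0398, adjusted p = 0.288). These 3 of 7 members had an unadjusted p under 0.05, as did 16% of all genes. DESeq2 called 264 genes (2.85%) and no member. The call of cebpd in brain and the missing call in kidney marrow thus do not by themselves show a difference between the tissues. cebpg and cebp1 were higher in every ablated brain library and lower in every ablated marrow library than in the uninjured ones of the same tissue, a pattern that 4.86% of the 11444 genes tested in both tissues had.

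The cebpd experiment asks what the brain of an injured fish looks like without cebpd, and the targeted gene was read first. Wild type libraries had cebpd levels of 45.1, 71.5 and 38.1 CPM, and mutants 1.18, 2.78 and 0.826 CPM. Every mutant library lies far below every wild type one. The log2 fold change was -4.96 (SE 0.33, 95% interval -5.68 to -4.24, n = 3 per group, edgeR adjusted p = 1.32e-05), and it was -5.64 without mutant replicate 2, the library with the most remaining reads. The mutants kept 7, 18 and 5 reads, 30 in all against 849 in the wild type, or 3.21% of the wild type level after scaling (95% interval 2.15% to 4.62%, counting error only). Which part of the transcript these reads cover was not analysed here.

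None of the other 6 members passed the test in the mutants. edgeR called 0.0991% of 11103 tested genes lower in the mutant and 0.036% higher. DESeq2 called 50 genes (0.45%), with cebpd the only member among them. Of the 6, 1 had an unadjusted p under 0.05, as did 8.5% of all genes, and cebpd alone of the 7 had libraries that did not overlap, lower in the mutants as 7.05% of all genes were.

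cebpb was that member. It stood at 19.3, 26.8 and 22.7 CPM in cebpd+/+ and at 17.1, 19.3 and 16.2 CPM in cebpd-/- libraries. The lowest wild type and the highest mutant library are level, so the groups just overlap, and the log2 fold change was -0.38 (SE 0.14, 95% interval -0.69 to -0.07, unadjusted p = 0.0193, edgeR adjusted p = 0.486). Over the 12 alternative settings it ran from -0.48 to -0.26, with adjusted p from 0.355 to 0.999. cebpa, in contrast, was at 59.4, 52.4 and 59.7 CPM in cebpd+/+ and at 59.5, 59.8 and 59.3 CPM in cebpd-/- libraries (log2 fold change 0.06, interval -0.11 to 0.24, edgeR adjusted p = 0.908).

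cebpg stood at 87.8, 94.3 and 86.4 CPM in cebpd+/+ and at 78.3, 82.4 and 89.8 CPM in cebpd-/- libraries, which overlap (-0.10, interval -0.26 to 0.07, edgeR adjusted p = 0.799). ddit3 stood at 78.0, 92.2 and 93.4 CPM against 92.9, 91.2 and 85.2 CPM (0.03, interval -0.15 to 0.21, edgeR adjusted p = 0.963). cebpz was at 49.9, 57.0 and 50.1 CPM against 45.2, 48.7 and 58.5 CPM (-0.04, interval -0.26 to 0.19, edgeR adjusted p = 0.964). For cebpa, cebpg, ddit3 and cebpz the intervals end within 0.26 of 0 on the log2 scale in both directions. cebp1 stood at 2.38, 1.13 and 2.47 CPM against 2.69, 2.63 and 1.98 CPM, and its interval was much wider at this depth (0.27, interval -0.49 to 1.04, edgeR adjusted p = 0.906).

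Summed over the 6 members other than cebpd, the family stood at 297, 324 and 315 CPM in cebpd+/+ and at 296, 304 and 311 CPM in cebpd-/- libraries, and these overlap. cebpd made up 13.2%, 18.1% and 10.8% of the family's reads in the wild type and 0.396%, 0.907% and 0.265% in the mutants. Among the marker sums, erythroid cells were at 445 to 543 CPM in the wild type and 339 to 402 CPM in the mutants, and radial glia at 4374 to 5127 against 3848 to 4207. The erythroid sum was mostly hbaa1 (log2 fold change -0.41). In that list alas2 and slc4a1a were also below 0 (-0.34 and -0.45), while gata1a and epor had 0.96 and 0.26. In radial glia 4 of 5 genes were below 0, and no gene of either list was called. The part of these cell types in the values of the members was not tested.

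The neighbours of the members in the genome were read as well, by gene order in the RefSeq annotation of GRCz12tu, a later assembly than that of the files. cebpa and cebpg are adjacent protein-coding genes there. After ablation in brain their log2 fold changes were 0.04 and 0.19, and in the mutant 0.06 and -0.10, with no call for either. Next to cebpd lies mcm4, which encodes a subunit of the replicative helicase. In the mutant, mcm4 had a log2 fold change of 0.74 (SE 0.18, unadjusted p = 0.00102, edgeR adjusted p = 0.149), which does not pass the test. The 5 other neighbours of cebpd that could be tested, among the 5 genes on each side, had log2 fold changes between -0.00 for ube2v2 and 0.23 for snai2.

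Genes tied to C/EBP members in other settings were set beside the family in 5 lists. The signalling list holds genes of the signals known to induce C/EBP members and targets of these signals. Of its 18 tested genes, 11 had a fitted difference above 0 in the ablated brain and 7 below it, with a median of 0.06. There edgeR called 1 higher and none lower. It was socs3b, the feedback inhibitor that STAT3 induces. DESeq2 called socs3b and also sgk1, a kinase gene induced by glucocorticoids, whose edgeR log2 fold change was -0.31 (adjusted p = 0.132). socs3b stood at 8.997 and 10.6 CPM in uninjured and at 16.8 and 19.0 CPM in ablated brain, with no overlap (log2 fold change 0.87, SE 0.13, edgeR adjusted p = 0.0163). The call ended without uninjured replicate 1 (0.76, adjusted p = 0.0628) and in the fit with the kidney marrow libraries (adjusted p = 0.893). In kidney marrow 5 of the 18 tested signalling genes had a fitted difference above 0 and 13 below it, with a median of -0.21. Against most of its list, socs3b stood there at 51.3 and 48.8 CPM in uninjured and at 165 and 119 CPM in ablated libraries (1.56, SE 0.18, edgeR adjusted p = 0.0740). In the cebpd experiment it was at 13.7, 49.2 and 43.4 CPM in cebpd+/+ and at 22.7, 30.4 and 20.8 CPM in cebpd-/- libraries, where wild type replicate 1 lies apart from the other wild type libraries (-0.54, SE 0.31, edgeR adjusted p = 0.680).

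Of 9 tested liver and fat genes, which C/EBP members control in mammals, edgeR called 1 higher in the ablated brain and none lower. It was lpl, which encodes lipoprotein lipase. lpl stood at 15.1 and 13.4 CPM in uninjured and at 33.7 and 24.4 CPM in ablated brain (log2 fold change 1.01, SE 0.15, edgeR adjusted p = 0.0149). The call ended without uninjured replicate 2 (0.93, adjusted p = 0.0707) and in the fit with the kidney marrow libraries (adjusted p = 0.893). In the cebpd experiment it stood at 31.2, 44.9 and 32.1 CPM in cebpd+/+ and at 29.4, 28.9 and 23.1 CPM in cebpd-/- libraries. All 3 mutant libraries lie below the wild type ones, and the difference did not pass the test (-0.40, SE 0.15, unadjusted p = 0.0167, edgeR adjusted p = 0.455). Of the 5 genes of this list tested in the mutant, tfa had the lowest p (-0.96, edgeR adjusted p = 0.432), and 2 were above 0. The log2 fold change of tfa in ablated brain was -0.15. In kidney marrow, 12 of the 15 tested genes of this list had a fitted difference above 0, with a median of 1.89. None passed the edgeR test, 8 had an unadjusted p under 0.05, and DESeq2 called 4, lpl among them. lpl was lower in kidney marrow after ablation, at 53.9 and 50.9 CPM in uninjured and 23.8 and 33.4 CPM in ablated libraries (-0.81, SE 0.18, edgeR adjusted p = 0.122). fabp10a, a liver fatty acid carrier, had the lowest p (2.49, edgeR adjusted p = 0.0740), and the hepatocyte markers, which include it, summed higher in both ablated libraries, as given above.

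Of the myeloid genes, 12 of 18 tested had a fitted difference above 0 in the ablated brain and 6 below it, with a median of 0.10. edgeR called none, and 2 had an unadjusted p under 0.05. ncf1, which encodes a subunit of the phagocyte NADPH oxidase, was at 21.4 and 29.7 CPM in uninjured and at 47.6 and 38.0 CPM in ablated brain (log2 fold change 0.74, SE 0.14, edgeR adjusted p = 0.0600). In the cebpd experiment ncf1 stood at 30.6, 32.2 and 24.4 CPM in cebpd+/+ and at 19.5, 17.3 and 22.8 CPM in cebpd-/- libraries, with no overlap and no call (-0.54, SE 0.14, edgeR adjusted p = 0.200). DESeq2 called ncf1 in the brain comparison (adjusted p = 0.00252), the 1 gene of the list that it called. In kidney marrow ncf1 was lower, at 339 and 465 CPM in uninjured and 153 and 255 CPM in ablated libraries (-0.92, SE 0.29, edgeR adjusted p = 0.183). DESeq2 called it there too. Over all 14 myeloid genes tested in the mutant, 7 lay above 0 and 7 below, with a median of -0.07; edgeR and DESeq2 called none, and 3 had an unadjusted p under 0.05.

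The list of the integrated stress and unfolded protein responses, in which ddit3 acts, had no edgeR call in the brain, kidney marrow or mutant comparison, where 3, 1 and 2 of its 18 genes had an unadjusted p under 0.05, beside 6.85%, 19.6% and 8.5% of all genes. Its median log2 fold change was 0.02 in ablated brain, 0.14 in ablated kidney marrow and -0.09 in the mutant, over 18 tested genes each. In the mutant 14 of the 18 lay below 0. ddit4, a stress- and glucocorticoid-induced inhibitor of mTORC1, was nearest to a call. It stood at 98.6, 98.8 and 93.9 CPM in cebpd+/+ and at 57.1, 73.7 and 74.0 CPM in cebpd-/- libraries, with a wide gap between the groups (log2 fold change -0.50, SE 0.09, unadjusted p = 0.000125, edgeR adjusted p = 0.0601). DESeq2 called it lower (adjusted p = 0.00504), the 1 gene of the list that it called in the mutant. In the ablation experiment ddit4 was at 61.7 and 60.0 CPM in uninjured and at 83.9 and 71.8 CPM in ablated brain (0.35, SE 0.08, edgeR adjusted p = 0.136). Of 16 tested signalling genes in the mutant, edgeR and DESeq2 called none and 3 had an unadjusted p under 0.05. klf9, a target of the glucocorticoid receptor, had the lowest p (-0.44, edgeR adjusted p = 0.389), followed by fkbp5, another such target (-0.39, adjusted p = 0.409).

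**Figure D4:**
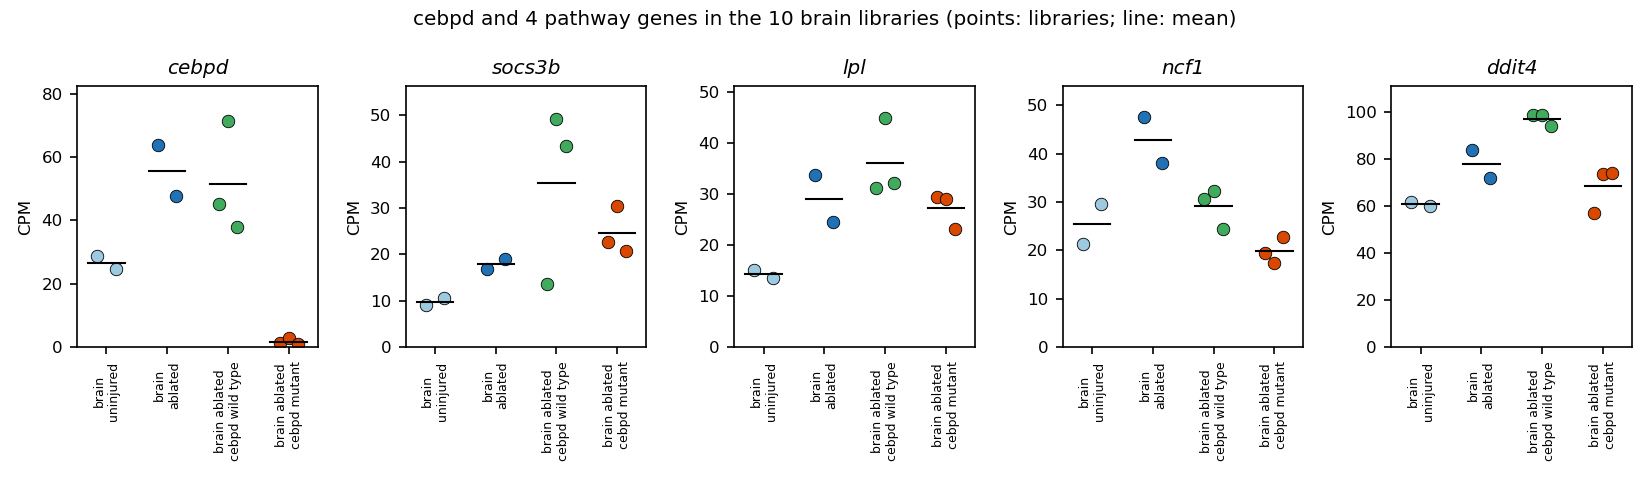
Levels in CPM of cebpd and of 4 genes from the lists (socs3b, lpl, ncf1, ddit4) in the 10 brain libraries, on linear axes from 0; points are libraries and lines are group means. Each gene is higher in both ablated than in both uninjured libraries, as were 18.3% of all tested genes. There cebpd, socs3b and lpl passed the edgeR test, and in the mutants cebpd alone passed it. The 4 list genes were taken from those with low p in the brain or mutant fits. Not all such genes share the pattern: klf9, fkbp5 and tfa, also fitted lower in the mutant, had log2 fold changes of -0.14, -0.14 and -0.15 in ablated brain.

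The ribosome assembly list showed no such shift outside kidney marrow. In ablated brain 11 of 21 lay above 0 with a median of 0.01, and in the mutant 12 of 21 with a median of 0.05, and edgeR and DESeq2 called none in either, with 0 and 3 genes at an unadjusted p under 0.05. Between uninjured tissues, 20 of 21 ribosome assembly genes were lower in brain, with a median log2 difference of -1.09, beside the -0.77 of cebpz. All 20 tested myeloid genes had a fitted difference below 0 (median -4.29), and edgeR called 19 of them lower in brain. Of all tested genes it called 39.2% lower and 38.9% higher. The lowest p among the myeloid genes were those of mmp9 (-5.74) and lyz (-8.53), which encode a neutrophil protease and lysozyme. Of the 18 signalling genes, which include targets of the signals, edgeR called 14 lower and 1 higher in brain. The 1 higher was klf9 (0.75), and il6r, the receptor of interleukin-6, had a log2 difference of -6.20. Of the 18 stress genes edgeR called 9 lower and 5 higher. Among these, atf4a, one of the paralogues that encode the ddit3 activator ATF4, was lower (-1.76). Its paralogue atf4b was higher (0.53, edgeR adjusted p = 0.00144), and herpud1, a gene of protein quality control in the endoplasmic reticulum, was lower (-1.60). Of the 13 liver and fat genes 11 were lower and 2 higher, with a median of -3.01.

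**Figure D5:**
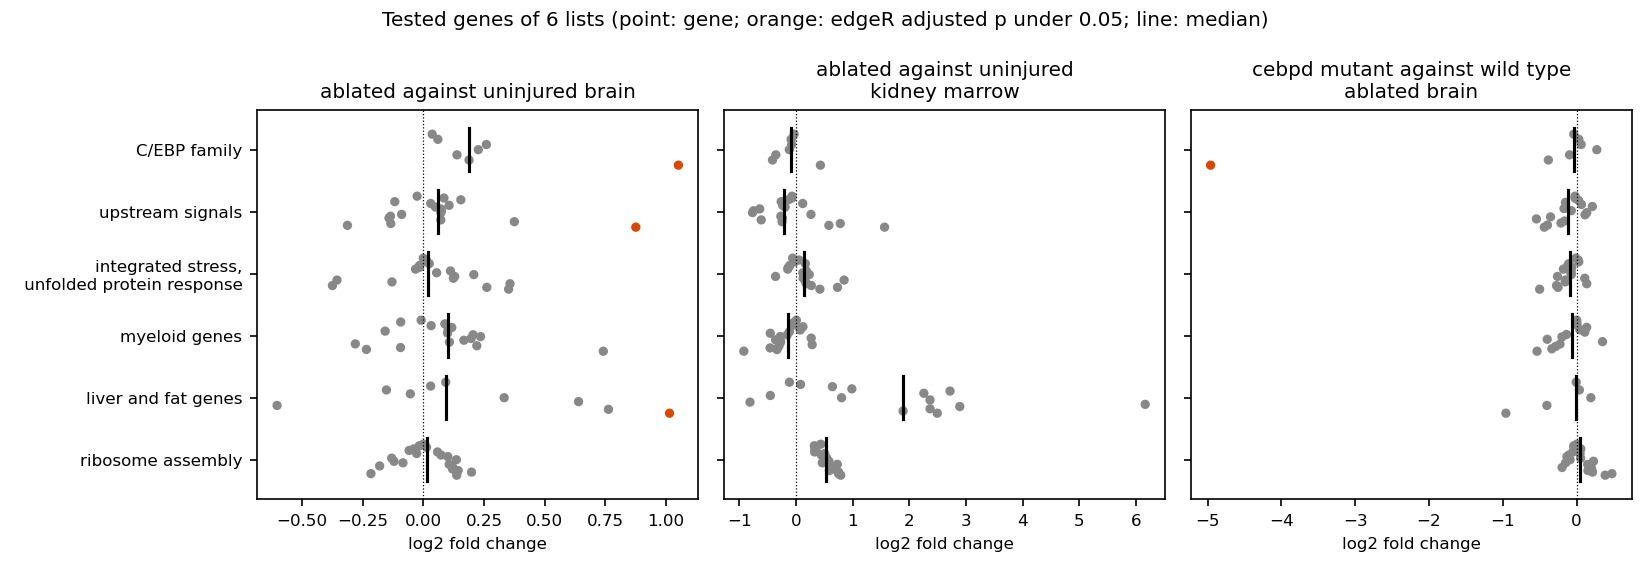
Log2 fold changes of the tested genes of 6 lists in 3 comparisons, 1 point per gene, with the list's median as a black line and edgeR calls in orange; each panel has its own scale. In kidney marrow all 21 ribosome assembly genes lie above 0 with none called, and in the brain panel the calls are cebpd, socs3b and lpl.

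The genes whose pattern was most like that of each member were found over the 8 libraries of the ablation experiment, with each log2 CPM taken as the deviation from the mean of its tissue. The measure was Pearson's r over these 8 values, among the 10241 of the 11444 genes tested in both tissues whose symbol is not a clone name, and with 2 libraries per group such r values are high for many genes and are given as a description. For cebpd they were dnal1 (0.975), atl3 (0.966) and moxd1 (0.962). For cebpb they were cpne3 (0.974), serpinb1l2 (0.967) and krit1 (0.9499), and for cebpg ttll6 (0.983), abcg2a (0.977) and ttll9 (0.964). For cebp1 they were arl13b (0.978), ankha (0.978) and park2 (0.975), and for cebpz gpkow (0.986), mmp14b (0.979) and tspan35 (0.975). For cebpa they were il1b (0.984), fzd9b (0.983) and irx5b (0.982), and for ddit3 klhl24b (0.994), ubb (0.994) and ldha (0.990). The values of cebpa and ddit3 rest mostly on the marrow libraries: within the 4 brain libraries r was 0.623 for cebpa with il1b and 0.690 for ddit3 with klhl24b.

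Among the members themselves, by the same measure, cebpb and cebpd were most alike (r = 0.817), followed by cebpa and cebp1 (0.764) and by cebpb and cebp1 (0.748). cebp1 and cebpz ran most opposite (-0.617). These libraries share the marrow pair in which uninjured replicate 1 was the higher for cebpa, cebpb, cebpd and cebp1.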

How the data were processed

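The 14 RNA-seq libraries were analysed, and 10 ATAC-seq libraries were left out. The authors deposited raw read counts for 14781 gene symbols and 5 HTSeq summary lines in each file. The build was danRer10 and the tools named in the submitters' processing notes, without saying which assay each served, were HTSeq 1.6.1, TopHat2 2.1.1, Trim Galore 0.4.1 and 0.6.4, Picard 1.91, SAMtools 1.5, MACS2 and Bowtie2 2.2.5. The sources used here give neither gene annotation nor strand setting, so reads of overlapping or antisense genes cannot be told apart. The reads that HTSeq assigned to no feature took 56.6% to 58.3% in brain and 37.4% to 41.5% in kidney marrow. These are shares of the gene, no-feature and ambiguous reads together. Ambiguous reads took 0.254% to 1.23%, and the summary lines stayed out of all fits.

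The fits used edgeR 4.0.16 in R 4.3.3 (filterByExpr, TMM, glmQLFit, glmQLFTest) over all genes, only the compared groups entering, with Benjamini-Hochberg adjustment at 0.05; all 7 members passed every filter. Standard errors and 95% intervals were derived from the F statistic. The steps were run on simulated data in which all genes had the same spread. The changes planted there were larger than those fitted for most members after ablation, so the runs do not show how small changes fare. The other settings tried were DESeq2 1.42.0, RLE size factors, no filter, a mean count of at least 50, each library left out, a replicate block and a wider fit.

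The members and lists were chosen with earlier results of these data known. All members and the 3 genes most like each member are named. The plan for the lists was up to 6 called genes in a comparison, or the 2 with the lowest p where none passed. Not all of these are given above. In the mutant asns (-0.25), srgn (-0.34), pwp2h (0.39) and utp15 (0.48) were left out. In ablated brain ppp1r15a (0.26), ddx18 (0.14) and noc3l (-0.22) were left out. Genes in kidney marrow, the tissue difference and the comparison of uninjured tissues were left out too. The genes noc2l, noc3l and atf4b, single marker genes and the neighbours were added after their values were seen. So were values of named genes in further comparisons. Gene order came from GRCz12tu, where 12660 of the genes and 7 of 7 members matched by symbol.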

Additional observations from a re-analysis of the deposited data

How the results depend on the processing

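Of 383 values of members under alternative settings, 362 kept their direction and their side of the threshold, as did 359 of 399 values of other named genes, none of which turned sign. With the wider fit, the brain comparison called 1 gene and 0 members (cebpd 1.06, adjusted p = 1) against 56 genes and 1 member, and kidney marrow 1352 of 13077 tested genes and 1 of 7 members. DESeq2 called 607 genes in kidney marrow, 50 in the mutant and 264 for the tissue difference, where edgeR called 0, 15 and 34. Without the low-count filter 41 genes were called in the mutant. The cause of these shifts was not tested. As deviations from their group means, same-numbered libraries correlated by -0.01 in brain, 0.02 in kidney marrow, -0.06 to -0.01 in the cebpd experiment and 0.09 between tissues. With 2 libraries in a group the deviations mirror each other, so the values of the ablation experiment cannot show whether replicate numbers pair the samples. In the cebpd experiment, with 3 libraries per group, differently numbered libraries correlated by -0.08 to 0.12. With the replicate block, genes called were 358 in brain, 598 in kidney marrow, 66 in the mutant and 257 for the tissue difference, and the log2 fold change of cebpd in kidney marrow was 0.053, reversed in sign. With each library left out, genes called ran from 37 to 197 in brain, 0 to 1 in kidney marrow, 6 to 89 in the mutant, 0 to 313 for the tissue difference and 8171 to 10829 between uninjured tissues, with 5 to 7 members called in the last. Log2 fold changes that turned sign when a library was left out ran, in brain, from -0.053 to 0.13 for cebpa. In kidney marrow they ran from -0.70 to 0.088 for cebpa, -0.23 to 0.094 for cebpb, -0.47 to 0.60 for cebpd and -0.38 to 0.29 for ddit3. In the mutant they ran from -0.15 to 0.033 for cebpz and -0.044 to 0.077 for ddit3, in the tissue difference from -0.0022 to 0.79 for cebpa and -0.17 to 0.49 for ddit3, and between uninjured tissues from -0.039 to 0.62 for ddit3. The cause was not tested. The fits that leave 1 library in a group assume that it varies like the others.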
